A study of Mus with 10 samples.

Results

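The genes described here build cholesterol and fatty acids, control that synthesis or move its products. They comprise 34 genes chosen by name from the 24564 genes in the deposited count table, and all 34 have a row there. Group 1 innate lymphoid cells that reside in tissue, called ILC1s, are lymphocytes related to natural killer (NK) cells and are abundant in the liver. ILC1s were sorted from the livers of C57BL/6 mice of 6 to 8 weeks, male or female, that either carried intact *Ncr1* (*Ncr1*+/+, the Ncr1-WT samples) or had *gfp* in its place on both alleles (*Ncr1* gfp/gfp, the Ncr1-KO samples). *Ncr1* encodes the activating receptor NKp46, for which a few *Ncr1* gfp/gfp ILC1s still stained in the study's flow cytometry. Cells of both genotypes carried NK1.1 and CD49a, lacked lineage markers such as CD3 and lacked CD49b, and were taken without treatment. The gate then used NKp46 in *Ncr1*+/+ mice and GFP in *Ncr1* gfp/gfp mice, so that the gate and the genotype cannot be told apart. Each genotype had 5 libraries. The study speaks of RNA pools and of mice matched for age and sex, but how many mice went into each library, and the sex behind each, is not given in the sources used here, so that p-values measure the spread between these libraries.

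Cells make cholesterol from acetyl-CoA through the mevalonate pathway, whose isoprenoid product is condensed to squalene, closed into lanosterol and trimmed in many steps to cholesterol. Fatty acids start from the same acetyl-CoA, released from citrate, and are then lengthened and desaturated. Membrane-bound transcription factors, the SREBPs, switch on both programs when sterols are scarce. The escort protein SCAP carries them to the Golgi for cleavage, and the INSIG proteins hold SCAP back when sterols are plentiful. Liver X receptors (LXRs) respond to oxysterols and drive export of cholesterol. In lymphocytes, demand for both lipids is known to climb when resting cells begin to divide.

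The counts were scaled by library size and TMM factor and are given as CPM, so that they are levels relative to the other RNA of a library. The TMM factors lay between 0.992 and 1.013. The total count was between 17996935 and 22623133 in *Ncr1*+/+ libraries and between 15796253 and 21975879 in *Ncr1* gfp/gfp libraries, so that 3 counts corresponded to 0.132 to 0.190 CPM in any library. *Ncr1* itself was at 1913 to 2144 CPM in *Ncr1*+/+ and at 141 to 356 CPM in *Ncr1* gfp/gfp libraries. The 6 ILC1 markers in the table summed to 3790 to 4066 CPM in *Ncr1*+/+ and 3928 to 4136 CPM in *Ncr1* gfp/gfp libraries. Within this sum 3 markers had positive and 3 negative log2 fold changes, from -0.19 for *Cxcr6* to 0.32 for *Itga1*. Only *Itga1* had an adjusted p under 0.05 (edgeR, adjusted p = 0.000481). The 7 T cell markers, most of whose sum was *Cd3g*, were at 461 to 579 CPM and 633 to 835 CPM without overlap. All 5 tested T cell markers had positive log2 fold changes, and 2 passed both thresholds of the edgeR test described below. These were *Cd3e*, with means of 5.72 and 21.1 CPM (adjusted p = 0.00235), and *Cd8a*, with 6.69 and 19.4 CPM (adjusted p = 0.0248). The 5 NK cell markers were at 423 to 465 CPM and 471 to 529 CPM, also without overlap. That gap came mostly from *Itgam*, with means of 49.4 and 96.0 CPM, while *Prf1*, most of the sum, had means of 343 and 344 CPM and *S1pr5* had a negative log2 fold change of -0.30 (adjusted p = 0.828). The part of both lists in the differences below was not tested. Neutrophil and stellate cell markers summed to at most 10.2 CPM in any library and Kupffer cell markers to at most 30.9 CPM. The endothelial sum was 113 to 151 CPM and came mostly from *Pecam1*, with *Lyve1* at 0 in all libraries. The sum of 10 hepatocyte markers stood apart in 1 library of each genotype, at 83.1 CPM in *Ncr1* gfp/gfp replicate 3 and 40.9 CPM in *Ncr1*+/+ replicate 1, against at most 8.21 CPM in the other libraries.

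No gene of the set passed the test between genotypes. Of the 34 genes, 31 passed the filter on low counts, and 0 of these were called. A call needed an adjusted p under 0.05 in edgeR's quasi-likelihood test together with a fold change over 1.5 or under 0.7. Of the 11463 tested genes 0.733% were called, 0.201% higher and 0.532% lower. By the adjusted p alone, 0 members passed, against a background of 1.35%, of which 0.567% was higher and 0.785% lower. DESeq2 passed 2 members by adjusted p, *Hsd17b7* and *Srebf2*, and called *Hsd17b7*, where it passed 2.72% and called 1.1% of the 11460 genes to which it gave an adjusted p. At an unadjusted p under 0.05 there were 4 members, *Hsd17b7*, *Fads1*, *Srebf2* and *Insig1*. This was 12.9% of the tested members, close to the 11.4% of all tested genes. All 4 were lower in *Ncr1* gfp/gfp ILC1s, a direction in which 5.91% of all tested genes lay at that level, while 5.46% lay in the other. Because the cells were measured in bulk, fewer expressing cells and less RNA per cell cannot be told apart for any of them.

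In these libraries the differences of the members were bounded about as closely as those of all tested genes. For 21 of the 31 tested members, or 67.7%, the 95% interval of the fold change lay wholly between 0.7 and 1.5, against 68.5% of all tested genes. For 16 of the 31 members it lay within 1.3-fold in either direction, a share close to that of all tested genes, 5961 of 11463. These 16 included the 3 fatty acid synthesis enzymes and all 4 genes of cholesterol transport and LXR. The fitted log2 fold change was negative for 23 members and positive for 8, so that 74.2% were negative against 49.3% of all tested genes. The median over the tested members was -0.05, beside a median of 0.00 over all tested genes. These counts describe the members and were not tested as a set.

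**Figure D1:**
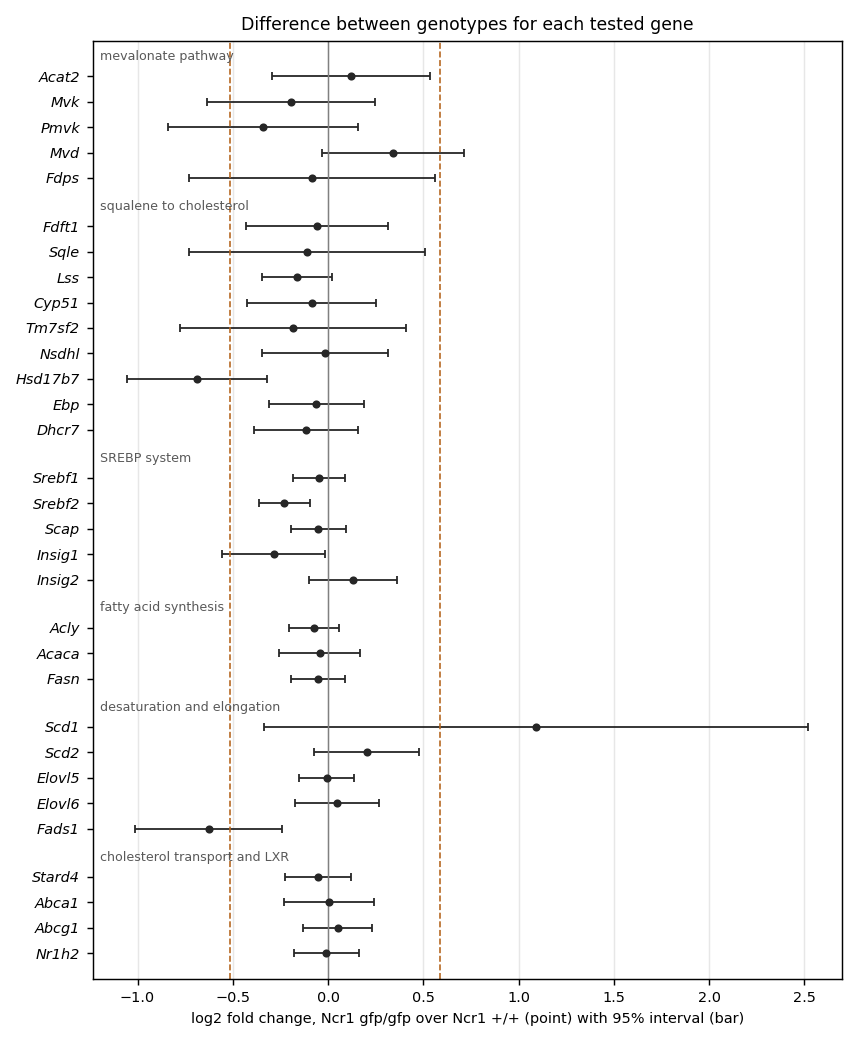
Points give the fitted log2 fold change of each of the 31 tested genes, *Ncr1* gfp/gfp over *Ncr1*+/+, and bars its 95% interval, grouped by role. Dashed lines mark fold changes of 0.7 and 1.5, and the solid line marks no difference. The intervals of *Hsd17b7*, *Fads1*, *Srebf2* and *Insig1* lie wholly below 0, and that of *Scd1* is the widest.

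To see which steps of the pathways these ILC1s express most, levels were compared between genes per kilobase of exon. In *Ncr1*+/+ ILC1s the highest member was *Acly*, which releases acetyl-CoA from citrate, at a mean level of 76.7 CPM per kilobase and rank 659 among the 11463 tested genes. Next came *Nr1h2*, which encodes LXRβ, at 55.2 CPM per kilobase, *Srebf2*, the SREBP gene most closely tied to sterol synthesis, at 52.6, and *Fasn*, the fatty acid synthase, at 42.2. *Elovl5*, *Abcg1*, *Srebf1* and *Scap* followed between 37.2 and 21.9 CPM per kilobase. The enzymes of the mevalonate pathway that were tested lay much lower, between 2.59 CPM per kilobase for *Fdps* and 4.67 CPM per kilobase for *Mvd*. How far reads lost in counting lowered the level of any gene was not tested, so that low counts need not mean little RNA. Among the later sterol enzymes the level ranged from 1.75 CPM per kilobase for *Sqle*, which makes the first oxygenation of squalene, to 19.1 CPM per kilobase for *Ebp*, a sterol isomerase. The lowest tested member was *Scd1* at 0.247 CPM per kilobase, rank 11190. In *Ncr1* gfp/gfp ILC1s the same 4 genes led, at 72.7, 54.9, 44.8 and 40.6 CPM per kilobase. Summed over the 34 genes, the members took 0.218% to 0.248% of the counts in *Ncr1*+/+ libraries and 0.217% to 0.240% in *Ncr1* gfp/gfp libraries.

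**Figure D2:**
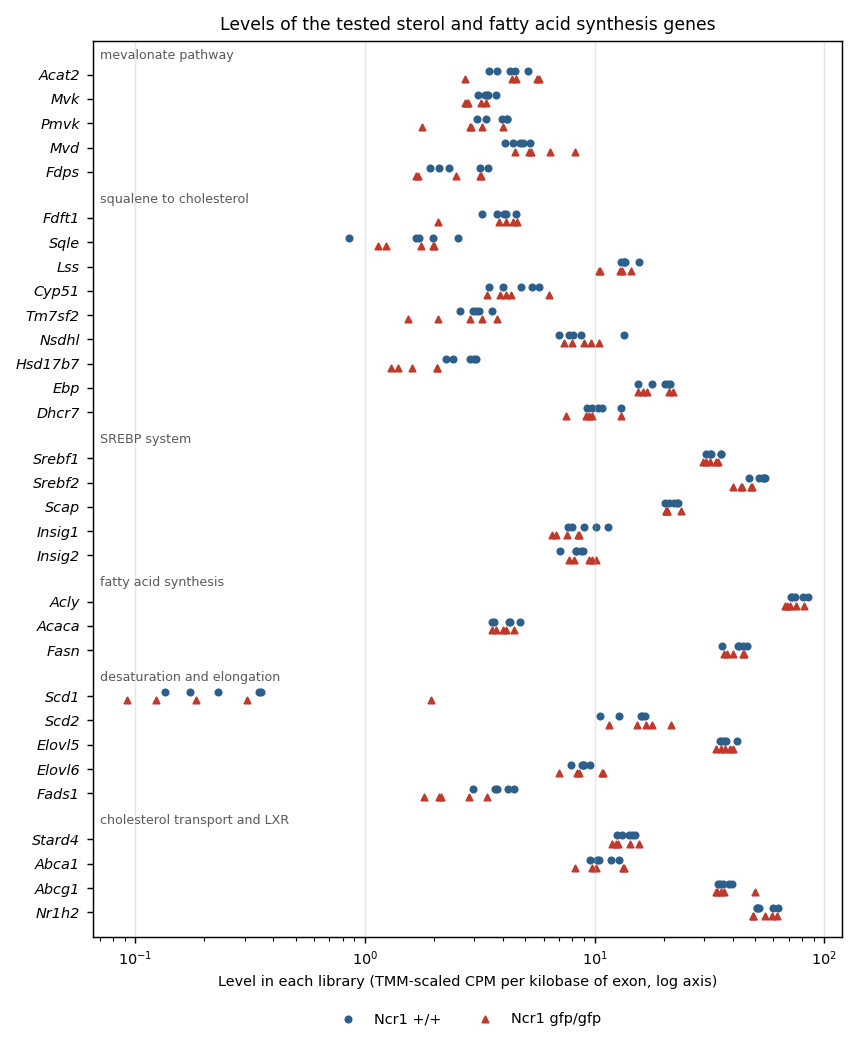
Each symbol is 1 library, with the TMM-scaled CPM per kilobase of exon on a log axis for the 31 tested genes, grouped by role (circles, *Ncr1*+/+; triangles, *Ncr1* gfp/gfp; 5 libraries each). Symbols of both genotypes overlap in every row but that of *Hsd17b7*, and *Scd1* has a single *Ncr1* gfp/gfp library far to the right.

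In the mevalonate pathway, 5 of the 7 genes were tested, with 3 negative and 2 positive log2 fold changes. *Mvd*, which decarboxylates the pyrophosphate of mevalonate, was at 8.24, 9.09, 7.60, 8.78 and 9.80 CPM in *Ncr1*+/+ replicates 1 to 5. The 5 *Ncr1* gfp/gfp values were 9.84, 15.3, 11.9, 9.64 and 8.39 CPM in the same order. The groups overlapped, with the 3 highest values all in *Ncr1* gfp/gfp ILC1s. For *Mvd* the fit gave a log2 difference of 0.34 (standard error, SE, 0.18, adjusted p = 0.496). *Pmvk* and *Mvk*, the kinases that load mevalonate with phosphate, had log2 fold changes of -0.34 and -0.19 (adjusted p = 0.669 and 0.824). *Pmvk* was lowest in *Ncr1* gfp/gfp replicate 3, at 3.02 CPM, where the other libraries of that genotype were between 4.89 and 6.84 CPM. For *Acat2*, which joins acetyl-CoA units at the entry of the pathway, the log2 fold change was 0.12, and for *Fdps*, which makes farnesyl pyrophosphate, it was -0.08. The intervals of this group were wide. That of *Fdps* reached from a fold change of 0.603 to 1.48, and its largest count in any library was 102.

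*Idi1* and *Hmgcs1* of the same pathway were not tested. *Idi1*, which interconverts the isoprenoid building blocks, had 84 counts over all 10 libraries, and its level was 0.369 ± 0.349 CPM in *Ncr1*+/+ and 0.529 ± 0.155 CPM in *Ncr1* gfp/gfp ILC1s (SD, n = 5 each). *Hmgcs1*, which makes the precursor of mevalonate, had 0 counts in all 10 libraries, where 3 counts would have been 0.132 to 0.190 CPM. The table lists *Hmgcs1* on an unplaced sequence named 13_random, with a span of 211820 bases, whereas the RefSeq annotation of GRCm38.p6 gives it a span of 17910 bases on chromosome 13. Its row shares its strand and part of its span with *1700074H08Rik*, which also has no count. Of the 51 genes that the table puts on such unplaced sequences, 29, or 56.9%, had no count in any library, against 32.3% of the 24513 other genes. The 0 of *Hmgcs1* therefore cannot be read as absence of its RNA, and the part of its placement in the missing counts was not tested.

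All 9 genes from squalene to cholesterol had a negative fitted log2 fold change under TMM, upper-quartile and DESeq2 scaling, with a median of -0.11, although those of *Fdft1*, *Sqle* and *Nsdhl* turned positive in other fits or when single libraries were left out. None of the 9 passed the adjusted threshold. *Hsd17b7*, the ketoreductase that works after the demethylation of lanosterol, is listed on chromosome 1, minus strand, from 171879668 to 171899336, in coordinates whose build the table leaves unnamed. It was at 14.0, 10.3, 11.1, 13.2 and 13.7 CPM in *Ncr1*+/+ replicates 1 to 5. It was at 5.97, 9.42, 6.41, 7.32 and 9.40 CPM in *Ncr1* gfp/gfp replicates 1 to 5. Every *Ncr1* gfp/gfp library was below every *Ncr1*+/+ library, which made *Hsd17b7* the only tested member without overlap, where 3.11% of all tested genes had none that is, 1.82% lower and 1.28% higher. Its log2 fold change of -0.69 (SE 0.18) stood for a fold change of 0.621 with a 95% interval of 0.481 to 0.801. The adjusted p of 0.0585 from edgeR missed the threshold. The two-sided exact permutation test over libraries gave p = 0.00794, the smallest value that 5 libraries against 5 can give and not adjusted for the number of members. *Hsd17b7* passed the adjusted threshold with DESeq2 (adjusted p = 0.0151), with no filter on low counts (0.0497), without *Ncr1* gfp/gfp replicate 2 (0.0467) and without *Ncr1* gfp/gfp replicate 5 (0.0468), and its adjusted p ranged from 0.0151 to 0.209 over all alternatives.

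None of the other 8 enzymes of this stretch had an unadjusted p under 0.05. *Lss*, which closes the sterol rings, was at 87.2 ± 6.39 CPM in *Ncr1*+/+ and 77.9 ± 10.8 CPM in *Ncr1* gfp/gfp ILC1s (SD, n = 5 each). The fitted log2 difference was -0.16 (SE 0.09, adjusted p = 0.512), and the values overlapped, with *Ncr1* gfp/gfp replicates 1 and 2 at 66.4 and 67.1 CPM below the rest. *Nsdhl*, which works in the removal of the methyl groups, was at 29.7 CPM in *Ncr1*+/+ replicate 1 and between 15.5 and 19.3 CPM in the other *Ncr1*+/+ libraries. Values of *Nsdhl* in *Ncr1* gfp/gfp libraries were between 16.3 and 23.1 CPM. Its log2 fold change was -0.01 with all libraries and 0.17 without *Ncr1*+/+ replicate 1. *Cyp51*, the lanosterol demethylase, was at 20.3 ± 4.05 and 19.2 ± 4.85 CPM, and *Dhcr7*, which catalyses a last reduction, at 29.9 ± 4.04 and 27.5 ± 5.63 CPM (SD, n = 5 each, *Ncr1*+/+ first). The log2 fold changes of these and of *Ebp*, *Sqle* and *Fdft1*, the squalene synthase, lay between -0.12 and -0.06. *Tm7sf2*, a sterol reductase, had a log2 fold change of -0.18, with an interval of the fold change from 0.584 to 1.33. The row of *Tm7sf2* overlaps that of *Vps51* on the same strand and that of *Fdft1* overlaps *Ctsb* on the other strand, so that their counts are less certain. Summed, the 9 genes were at 216 to 234 CPM in *Ncr1*+/+ libraries and at 175 to 218 CPM in *Ncr1* gfp/gfp libraries. These ranges overlapped, and *Ncr1* gfp/gfp replicate 1 alone set the low end, where the other libraries of that genotype were between 208 and 218 CPM.

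Of the 5 genes of the SREBP system, 2 were among the 4 with an unadjusted p under 0.05. Both were lower, a direction in which 5.91% of all tested genes lay at that level. A group of 5 genes is too small to set against that share, and it was not tested as a set. *Srebf2*, listed on chromosome 15, plus strand, from 81977699 to 82035390, was at 238, 252, 215, 246 and 249 CPM in *Ncr1*+/+ replicates 1 to 5. It was at 183, 201, 197, 220.1 and 222 CPM in *Ncr1* gfp/gfp replicates 1 to 5. Only *Ncr1*+/+ replicate 3 lay within the *Ncr1* gfp/gfp range. This gave a log2 fold change of -0.23 (SE 0.06), a fold change of 0.852 with a 95% interval of 0.777 to 0.935, and the adjusted p was 0.0828. The two-sided exact permutation test gave p = 0.0238, not adjusted for the number of members. *Srebf2* passed the adjusted threshold with DESeq2 (adjusted p = 0.0233) and with no filter on low counts (0.0461) but in neither case the fold threshold, and its adjusted p ranged from 0.0233 to 0.203 over the alternatives.

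*Insig1*, a retention protein that is itself an SREBP target, is listed on chromosome 5, plus strand, from 28397952 to 28405202. It was at 21.1, 26.8, 20.2, 30.1 and 23.8 CPM in *Ncr1*+/+ replicates 1 to 5, and at 17.3, 20.0, 17.9, 22.7 and 22.3 CPM in *Ncr1* gfp/gfp replicates 1 to 5. The groups overlapped in part, with the 3 highest values in *Ncr1*+/+ and the 3 lowest in *Ncr1* gfp/gfp ILC1s. On the log2 scale *Insig1* differed by -0.29 (SE 0.13, adjusted p = 0.393), and the exact permutation test gave p = 0.0794 (two-sided, not adjusted). *Insig2*, its paralog, was at 24.4 ± 2.11 CPM in *Ncr1*+/+ and 26.7 ± 3.13 CPM in *Ncr1* gfp/gfp ILC1s (SD, n = 5 each), with a log2 fold change of 0.13 (adjusted p = 0.753). Per kilobase, the ratio of *Insig1* to *Insig2* was between 0.880 and 1.43 in *Ncr1*+/+ and between 0.641 and 1.06 in *Ncr1* gfp/gfp libraries (two-sided exact permutation test on the log ratio, p = 0.0714, or 0.286 with Benjamini-Hochberg adjustment over 6 gene pairs). *Srebf1*, the SREBP gene most closely tied to fatty acid synthesis, was at 149.7 ± 10.6 and 145 ± 8.95 CPM, a log2 fold change of -0.05 (adjusted p = 0.858). The row of *Srebf1* overlaps *Rai1* on the other strand. Its ratio to *Srebf2* was compared in the same way. That ratio, *Srebf2* over *Srebf1* per kilobase, was 1.46 to 1.78 in *Ncr1*+/+ and 1.19 to 1.62 in *Ncr1* gfp/gfp libraries (two-sided exact permutation test, p = 0.0952, adjusted 0.286). *Scap* had a log2 fold change of -0.05, with the fold change between 0.874 and 1.07.

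**Figure D3:**
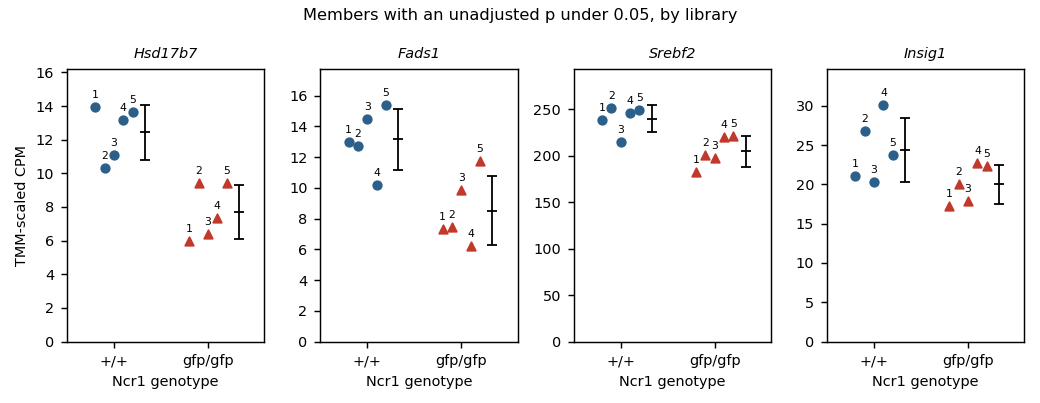
TMM-scaled CPM in each library for the 4 members with an unadjusted p under 0.05 (circles, *Ncr1*+/+; triangles, *Ncr1* gfp/gfp; the digit is the replicate number; bars give the mean and SD of 5 libraries). All *Hsd17b7* values of *Ncr1* gfp/gfp ILC1s, 5.97 to 9.42 CPM, sit below the lowest *Ncr1*+/+ value of 10.3 CPM, while the other 3 genes overlap in part.

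The enzymes that make palmitate differed by little. *Fasn* was between 357 and 456 CPM in *Ncr1*+/+ libraries and between 363 and 442 CPM in *Ncr1* gfp/gfp libraries. On the log2 scale *Fasn* differed by -0.05 (SE 0.07, adjusted p = 0.846) with a 95% interval of the fold change from 0.873 to 1.06. *Acly* was between 316 and 377 CPM and between 297 and 359.8 CPM, a log2 difference of -0.08 (SE 0.06, adjusted p = 0.743). *Acaca*, which makes the malonyl-CoA that *Fasn* uses, was at 37.0 ± 4.40 CPM in *Ncr1*+/+ and 35.9 ± 3.09 CPM in *Ncr1* gfp/gfp ILC1s (SD, n = 5 each), and its fold change had an interval of 0.838 to 1.12. Its log2 fold change of -0.04 took the opposite sign with limma-voom and without *Ncr1*+/+ replicate 1.

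Among the genes of desaturation and elongation, *Fads1*, which introduces a double bond in the making of arachidonic acid, is listed on chromosome 19, plus strand, from 10257378 to 10271362. It was at 12.95, 12.7, 14.5, 10.2 and 15.4 CPM in *Ncr1*+/+ replicates 1 to 5. In *Ncr1* gfp/gfp replicates 1 to 5 it was at 7.30, 7.45, 9.85, 6.25 and 11.7 CPM. *Ncr1* gfp/gfp replicate 5 was the only library of its genotype above the lowest *Ncr1*+/+ value. From these values came a log2 fold change of -0.63 (SE 0.18), a fold change of 0.648 with a 95% interval of 0.496 to 0.845. The adjusted p was 0.108, and the two-sided exact permutation test gave p = 0.0159, not adjusted for the number of members. Without *Ncr1* gfp/gfp replicate 5 the log2 fold change was -0.77 and the adjusted p 0.0433, while over the alternatives the adjusted p ranged up to 0.244. *Fads2*, which acts before *Fads1* in the same route, had 7 counts in all, with 0 counts in 7 of the 10 libraries, and was not tested. Its mean was 0.0609 CPM in *Ncr1*+/+ and 0.0106 CPM in *Ncr1* gfp/gfp ILC1s, below the value of 3 counts in every library.

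The stearoyl-CoA desaturases *Scd1* and *Scd2* make monounsaturated fatty acids, and their levels were far apart. *Scd1* was at 0.841, 1.68, 1.70, 1.11 and 0.653 CPM in *Ncr1*+/+ replicates 1 to 5. In *Ncr1* gfp/gfp replicates 1 to 5 it was at 0.444, 0.594, 9.37, 0.892 and 1.49 CPM. Replicate 3 alone carried 177 of the 358 *Scd1* counts in all libraries. The fitted log2 difference of *Scd1* was 1.09 with all libraries (SE 0.69, adjusted p = 0.605) and -0.49 without *Ncr1* gfp/gfp replicate 3. The same library had the highest hepatocyte marker sum, 83.1 CPM, and hepatocytes are known for high *Scd1*. In *Ncr1*+/+ replicate 1, where that sum was 40.9 CPM, *Scd1* was at 0.841 CPM, inside the range of its genotype. Other markers also stood high in *Ncr1* gfp/gfp replicate 3. Its 4 neutrophil markers summed to 10.2 CPM, against at most 1.21 CPM in any other library, and *Cd3e*, *Cd3d* and *Cd8a* reached 38.8, 22.8 and 36.4 CPM, the highest of all 10 libraries. The part of RNA from hepatocytes, neutrophils or T cells in the *Scd1* value was not tested.

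*Scd2* was at 87.0, 90.3, 57.7, 69.7 and 87.8 CPM in *Ncr1*+/+ replicates 1 to 5. It was at 63.2, 97.2, 117, 83.8 and 90.9 CPM in *Ncr1* gfp/gfp replicates 1 to 5. Both genotypes spread widely and overlapped, and the log2 difference was 0.20 (SE 0.13, adjusted p = 0.621). Per kilobase, *Scd2* exceeded *Scd1* by 30.1 to 119 times in *Ncr1*+/+ libraries and by 11.05 to 145 times in *Ncr1* gfp/gfp libraries. Reads that fit more than a single *Scd* gene could be lost from both. The elongases *Elovl5* and *Elovl6* had log2 fold changes of -0.01 and 0.05, with fold change intervals of 0.898 to 1.10 and 0.886 to 1.20. The spread of *Elovl6* was larger in *Ncr1* gfp/gfp ILC1s, at 54.2 ± 9.94 CPM, than in *Ncr1*+/+ ILC1s, at 52.4 ± 3.44 CPM (SD, n = 5 each), a difference in spread that was not tested.

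The 4 genes of cholesterol transport and LXR had log2 fold changes between -0.05 and 0.05. *Abcg1*, an exporter that LXRs induce, was at 229.8, 225, 200.1, 211 and 204 CPM in *Ncr1*+/+ replicates 1 to 5. It was at 199, 206, 292, 197 and 214 CPM in *Ncr1* gfp/gfp replicates 1 to 5. Only replicate 3 of *Ncr1* gfp/gfp stood above all *Ncr1*+/+ libraries. The log2 fold change of *Abcg1* was 0.05 (adjusted p = 0.905) and became -0.07 without that replicate. *Abca1*, the exporter that loads apolipoprotein A-I, had a log2 fold change of 0.00 with an interval of the fold change from 0.851 to 1.18, and its sign turned in several alternatives. *Nr1h2* was at 112 ± 11.3 and 111 ± 12.3 CPM (SD, n = 5 each), with a log2 fold change of -0.01. *Stard4*, a sterol carrier within the cell, had a log2 fold change of -0.05 with an interval of the fold change from 0.854 to 1.09.

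**Figure D4:**
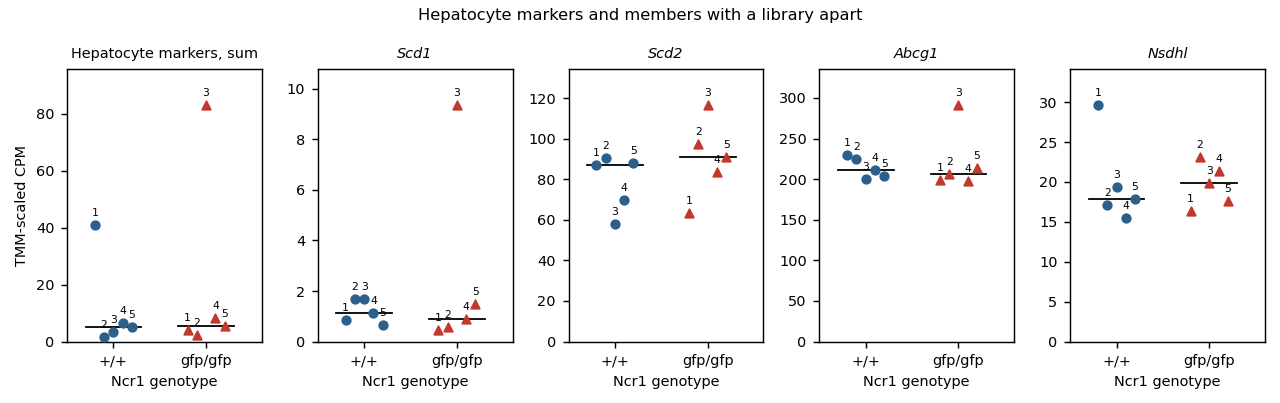
TMM-scaled CPM in each library for the sum of 10 hepatocyte markers and for *Scd1*, *Scd2*, *Abcg1* and *Nsdhl* (circles, *Ncr1*+/+; triangles, *Ncr1* gfp/gfp; the digit is the replicate number; lines give the median of 5 libraries). *Ncr1* gfp/gfp replicate 3 has the highest marker sum, 83.1 CPM, and the highest *Scd1*, *Scd2* and *Abcg1*, and *Ncr1*+/+ replicate 1 has the second marker sum, 40.9 CPM, and the highest *Nsdhl*.

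A wider list of 53 genes of the same pathways was read in the same fit. Of these, 52 were in the table and 40 were tested, and 0 had an adjusted p under 0.05, against the background of 1.35% (edgeR). At an unadjusted p under 0.05 there were 3 lower and 2 higher, or 5 of the 40, near the 11.4% of all tested genes. DESeq2 passed 1, *Lpin1*, against its background of 2.72%. The log2 fold change was negative for 27 and positive for 13, with a median of -0.04, and the interval lay between fold changes of 0.7 and 1.5 for 29, or 72.5%. The 6 tested genes of sterol synthesis ranged from -0.40 to 0.17 on the log2 scale, and *Lbr*, a sterol reductase of the nuclear envelope, was at 386 ± 14.6 CPM in *Ncr1*+/+ and 378 ± 11.2 CPM in *Ncr1* gfp/gfp ILC1s (SD, n = 5 each). All 5 tested genes of fatty acid synthesis and its supply and all 4 tested LXR partners and targets had negative values, down to -0.35 and -0.19, and none of them passed. Genes of cholesterol handling lay between -0.03 and 0.11.

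The 5 genes of the wider list with an unadjusted p under 0.05 were singled out after their values were seen, are about as many as that background gives, and did not pass the adjusted threshold. *Hacd3*, a dehydratase of fatty acid elongation, was at 59.6 to 75.9 CPM in *Ncr1*+/+ and 77.4 to 80.9 CPM in *Ncr1* gfp/gfp libraries, without overlap (log2 fold change 0.23, adjusted p = 0.151). *Hacd2*, its paralog, was at 8.70 to 11.2 CPM and 2.29 to 8.27 CPM, also without overlap but lower in *Ncr1* gfp/gfp ILC1s (log2 fold change -0.53, adjusted p = 0.415). Of the 40 tested genes of this list, 1 was thus higher and 1 lower without overlap, against 1.28% and 1.82% of all tested genes. *Lpin1*, a phosphatidate phosphatase of triglyceride synthesis, was at 66.6 ± 9.20 and 51.3 ± 8.41 CPM (SD, n = 5 each), with a log2 fold change of -0.38 (adjusted p = 0.107). *Mlycd*, which breaks down malonyl-CoA, was at 34.2 ± 4.32 and 26.8 ± 2.29 CPM, with a log2 fold change of -0.35 (adjusted p = 0.129). *Rnf139*, a ubiquitin ligase of the SREBP and INSIG system, was at 79.0 ± 7.90 and 92.5 ± 8.99 CPM, with a log2 fold change of 0.23 (adjusted p = 0.241).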

How the data were processed

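RNA was measured in 10 libraries of sorted liver ILC1s, 5 of each *Ncr1* genotype. According to the methods, double-stranded cDNA was made with a SMART-Seq v4 kit from 2 ng of RNA, read for 51 cycles from a single end, trimmed with Trimmomatic and FASTP, mapped with STAR 020201 to mm10 and counted with HTSeq 0.6.0 at its defaults. HTSeq counts by strand unless told otherwise, and the kit does not mark strand, so that overlapping genes are less certain. The deposited values are raw counts per gene, not normalized by the authors. The table names no build. Of the 34 members, only 2 share chromosome and start with the RefSeq annotation of GRCm38.p6, matched by symbol. The positions of the others differ from that annotation, so that the positions given here cannot be taken as mm10 positions. The part of the build in the counts was not tested.

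From these counts, genes were filtered with filterByExpr, scaled by TMM and tested in edgeR 4.0.16 (R 4.3.3) with genotype as the only term and Benjamini-Hochberg adjustment over 11463 genes, tested on simulated data first. Called genes had an adjusted p under 0.05 with a fold change over 1.5 or under 0.7. Standard errors were worked back from the log2 fold change and the F statistic of the quasi-likelihood test. The 95% intervals were built from these with a t quantile, so that both are approximate. Exact permutation tests of single genes used all 252 arrangements of log2(CPM + 0.1). They are given for the 4 members picked by a low unadjusted p from the same values, so that they are no separate support. Levels per kilobase used the exon length in the table. Floors of 3 counts cover counting error only. The members, the wider list and the marker lists were chosen with earlier results of these data known, and every member is named, while 1 marker list is not reported here. Alternatives were DESeq2 1.42.0, limma 3.58.1 (voom), other filters and scaling, a replicate block and leaving out libraries. Promoter motifs were not searched, since no promoter sequence was used here. Replicates of a genotype were not the same library, since the chi-square per gene between them was 9.18 to 24.0.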

Additional observations from a re-analysis of the deposited data

Results flagged for a closer look

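In 8 of the 76 groups of 5 libraries examined, the highest or lowest library stood apart from the nearest by more than Dixon's 95% critical value for the gap over the range, where chance gives about 1 in 20, or 3.8. In *Ncr1* gfp/gfp ILC1s, replicate 3 stood apart with *Scd1* at 9.37 CPM (next 1.49), *Abcg1* at 291.5 CPM (next 213.6) and the summed hepatocyte markers at 83.1 CPM (next 8.21). Replicate 2 of the same genotype stood apart with *Scap* at 101.4 CPM (next 88.7), and replicate 1 was low in the summed genes from squalene to cholesterol, at 174.6 CPM (next 208.5). In *Ncr1*+/+ ILC1s, replicate 1 stood apart with *Nsdhl* at 29.7 CPM (next 19.3) and the summed hepatocyte markers at 40.9 CPM (next 6.51), and replicate 4 with *Lss* at 98.4 CPM (next 85.7).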

How the results depend on the processing

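The count of members called was 0 and became 1 with DESeq2 and 1 with no filter on low counts (*Hsd17b7* in both), and 0 to 2 when libraries were left out in turn, with *Hsd17b7* called without *Ncr1* gfp/gfp replicate 2 and *Hsd17b7* and *Fads1* without replicate 5. By adjusted p alone it became 2 with DESeq2 and 2 with no filter, and 0 to 2 with a library left out. The wider list went from 0 to 1 with DESeq2, no filter and the replicate block (*Lpin1*), and 0 to 1 with a library left out (*Mlycd* without *Ncr1*+/+ replicate 5). Over all tested genes, the 84 called became 131 with no filter and 23 at an absolute log2 fold change above 1, and 60 to 98 with a library left out. The 155 with an adjusted p under 0.05 became 312 with DESeq2, 264 with no filter and 95 without both libraries high in hepatocyte markers (chosen after seeing the data), and 100 to 160 with a library left out, lowest without *Ncr1*+/+ replicate 3 (100) and 1 (102). The causes were not tested.

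Of 526 alternative log2 fold changes over the tested members, 488 kept their sign, 38 turned it and 7 passed the threshold, and 20 members never turned. With a library left out, the range was -0.20 to 0.0370 for *Fdps*, -0.13 to 0.10 for *Fdft1*, -0.285 to 0.0602 for *Sqle*, -0.0916 to 0.17 for *Nsdhl*, -0.0909 to 0.0121 for *Acaca*, -0.49 to 1.36 for *Scd1*, -0.0375 to 0.0362 for *Elovl5*, -0.0229 to 0.13 for *Elovl6*, -0.0813 to 0.0927 for *Abca1*, -0.0695 to 0.0901 for *Abcg1* and -0.0582 to 0.0390 for *Nr1h2*. Limma-voom turned *Fdft1* (0.0207), *Nsdhl* (0.0792), *Acaca* (0.0130) and *Elovl5* (0.00798). Without both libraries high in hepatocyte markers, 6 members turned, namely *Nsdhl* (0.17), *Scd1* (-0.59), *Elovl5* (0.00792), *Abca1* (-0.0226), *Abcg1* (-0.0443) and *Nr1h2* (0.0370). The correlation of same-numbered deviations lay between -0.0177 and 0.0441, and the highest with another number between 0.0253 and 0.103. These values show no strong shared shift of same-numbered libraries but cannot exclude that the numbers paired them. The replicate block turned *Nsdhl* (0.0140) and *Abca1* (-0.0140) and called 0 members. *Scd1* could not be tested with at least 10 counts in every library. *Idi1* and *Fads2* had too few counts to test, so that a difference in them was not detectable at this depth.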
